A study of Gossypium hirsutum with 6 samples.

Results

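The expansin genes described here are the 95 genes, of 73622 in the deposited table, whose Swiss-Prot description names an expansin, apart from Gh_D10G123800 and Gh_A10G149600. These 2 genes were left out because they are by far the most abundant of the family, so levels in the same libraries chose them. By description 70 of the 95 are expansin-A, 8 are expansin-B and 17 are expansin-like genes. They were measured by poly(A) RNA sequencing in fibers of upland cotton (Gossypium hirsutum, strain 63), a species that joins an A and a D subgenome. The later group is fibers of 15 days post-anthesis (15DPA) and the earlier one fibers of 5 days post-anthesis (5DPA), where anthesis is the day of flowering. Each group has 3 libraries, called biological replicates by the submitters. Neither group carried a transgene or a treatment in the labels, and all samples share the strain. The labels do not say how many plants or bolls went into a library, so p-values measure the spread between these libraries. The comparison asks how the less abundant expansins differ between these 2 days of fiber growth.

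Expansins are secreted proteins that let the polymers of the plant cell wall slip past each other at acid pH, without cutting them, so that a wall under turgor can extend. The expansin-A class acts on the walls of most flowering plants. The expansin-B class takes in the pollen allergens of grasses. Expansin-like proteins share both domains of the family, but a wall-loosening activity has not been established for them. A cotton fiber is a single cell of the seed coat epidermis that elongates for weeks, and expansin-A genes are known as abundant transcripts of such fibers. Most expansin numbers below are those of the closest Arabidopsis protein (87 of 95 genes) or rice protein (8 genes), so a shared number does not make 2 cotton genes copies of each other. No gene or protein sequence of the members was used here.

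The libraries held 15.61 to 16.94 M counts, and the 15DPA and 5DPA groups overlapped in depth. Replicate 3 of 15DPA stood apart from the other libraries of its stage, with a chi-square per gene of 24.25 and 36.68 against them, where all other pairs within a stage had 12.49 to 17.38. It held 35 genes with at least 20 reads and at most 1 read in all other libraries together, against 0 to 5 in each other library. On the first principal component, the axis of most variance between the libraries (60.9%), 15DPA replicate 2 lay nearest to 5DPA. It was at −34.4, against −103.5 and −130.3 for 15DPA replicates 1 and 3, and 78.1 to 112 for 5DPA. The 4 genes described as Protein E6, an abundant fiber protein, were all tested, with 1 higher and 1 lower at 15DPA. They ran in sum from 12856 to 19617 FPKM at 15DPA, against 8271 to 11752 FPKM at 5DPA. The full list of 142 fiber genes, which adds tubulins and fasciclin-like arabinogalactan proteins, had 36 of 91 tested higher and 6 lower. The 12 genes of cellulose synthase A subunits 4, 7 and 8 stood for thickening walls. They ran in sum from 5.06 to 7.04 FPKM at 15DPA, against 5.96 to 6.51 FPKM at 5DPA (0 of 3 tested passed). The table describes no gene as Annexin Gh1. Markers of other cells also moved between the stages. The 106 genes of dividing cells (histones, mitotic cyclins, replication licensing factors) had 76 of 99 tested lower at 15DPA. They ran from 1180 to 1995 FPKM in sum at 15DPA, against 5334 to 8187 FPKM at 5DPA, highest in replicate 2 of each stage. The 31 phloem genes, described as SIEVE ELEMENT OCCLUSION, had sums of 14.3 to 38.6 FPKM at 15DPA, against 95.1 to 175.8 FPKM at 5DPA. Of these, 4 were tested, 1 was lower, and 7 had no read in any library. The 57 genes of green tissue had sums of 25.6 to 46.8 FPKM at 15DPA, against 74.0 to 79.8 FPKM at 5DPA (6 of 15 tested lower). The 33 seed storage genes had sums of 12.4 to 16.7 FPKM at 15DPA, against 5.61 to 8.11 FPKM at 5DPA (4 of 4 tested higher). The 24 xylem genes had 9.72 to 15.4 FPKM in sum at 15DPA, against 1.86 to 3.43 FPKM at 5DPA (2 of 2 tested higher). The 36 pollen genes had 30.8 to 108.2 FPKM at 15DPA, against 38.9 to 57.2 FPKM at 5DPA (1 of 9 tested higher). No read in any library was found for 18 of the seed storage, 9 of the xylem and 16 of the pollen genes. Of all genes tested, 13.0% were higher and 10.4% lower at 15DPA. The part of these cell types in the expansin results was not tested. In fibers sampled in bulk, fewer cells of a type and less RNA per cell cannot be told apart.

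A few of the most abundant of the 95 genes changed place between the stages and others kept theirs, while the size of the difference in the sum itself depended on the scaling. They summed to 404.6, 508.2 and 589.9 FPKM in the 15DPA libraries, replicates 1 to 3, and to 372.3, 451.1 and 445.3 FPKM in the 5DPA libraries (means of 500.9 ± 92.8 and 422.9 ± 43.9 FPKM, SD, n = 3 each). These ranges overlapped. FPKM is the read count per kilobase of gene model and per M counts of the library. Divided by edgeR's TMM factors, the scaling used in the tests, the sums were 467.9, 515.9 and 684.2 at 15DPA, against 336.8, 390.0 and 418.3 at 5DPA. On that scale every 15DPA library lay above every 5DPA library, and an exact permutation test of 3 against 3 cannot go below p = 0.1. The 95 genes made up 4.33% ± 1.18 of the whole family's FPKM at 15DPA and 7.66% ± 2.17 at 5DPA. The rest belonged to the 2 dominant genes, at 11379 ± 2297 FPKM at 15DPA, against 5292 ± 1094 FPKM at 5DPA. Gh_D04G012100 and Gh_D07G105800 alone supplied 133.4 ± 32.0 FPKM at 15DPA, against 11.7 ± 3.59 FPKM at 5DPA. Without them the other 93 genes came to 367.5 ± 63.2 FPKM at 15DPA, against 411.2 ± 41.2 FPKM at 5DPA, and with the TMM factors to 407.4 ± 73.6, against 371.1 ± 38.0. The direction of that remainder thus turned with the scaling, within the spread of the libraries.

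**Figure D1:**
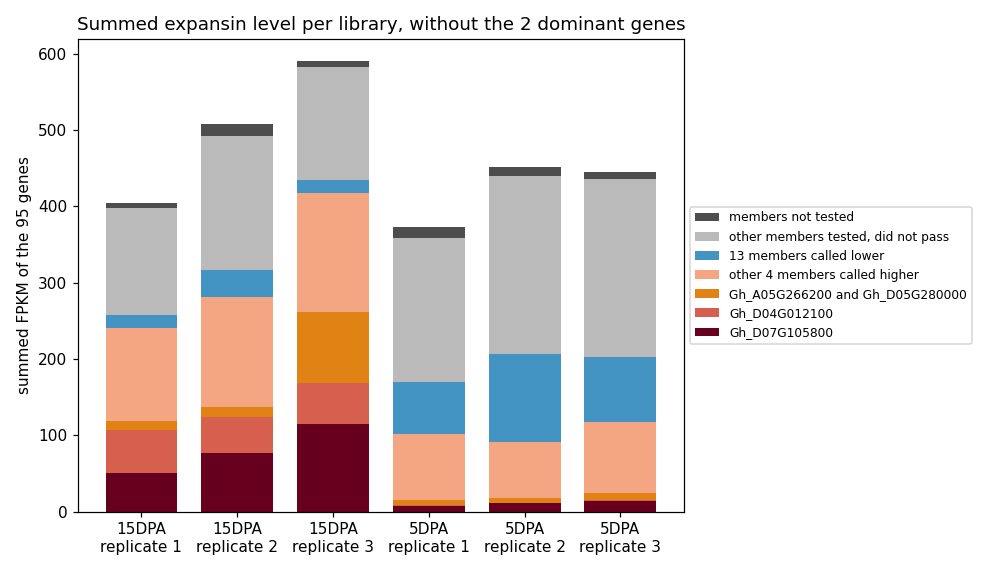
Stacked bars give the summed FPKM of the 95 expansin genes in each library, split by gene or by outcome of the test. The bars reach 404.6 to 589.9 FPKM at 15DPA and 372.3 to 451.1 FPKM at 5DPA. The share of the 13 genes lower at 15DPA shrinks while that of Gh_D07G105800 and Gh_D04G012100 grows. The test on these same libraries sorted the 13 genes, which set their direction.

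Of the 95 genes, 40 reached a mean of 1 FPKM over the 6 libraries and were tested. Of these, 7 rose and 13 fell at 15DPA (edgeR quasi-likelihood test, Benjamini-Hochberg adjusted p under 0.05), and 20 did not pass. Of all 40054 genes tested 23.4% passed, 13.0% higher and 10.4% lower. By at least 2-fold, 5 expansins rose and 11 fell, where 6.12% of all genes tested rose and 6.49% fell by that much. The 7 genes that rose came to 291.7 ± 68.4 FPKM in sum at 15DPA, against 97.3 ± 12.7 FPKM at 5DPA. The 13 that fell came to 23.4 ± 10.4 FPKM at 15DPA, against 89.8 ± 23.8 FPKM at 5DPA. Their sum was highest in replicate 2 of each stage, at 35.4 and 115.8 FPKM. The test on these same libraries sorted the genes that rose and fell, so the direction of both sums follows from that choice. Single genes that rose had means of 1.34 to 46.7 FPKM at 5DPA, and those that fell 1.83 to 11.9 FPKM. In 6 members every 15DPA library lay above every 5DPA library in FPKM, and in 17 every one lay below. Of all genes tested 12.9% and 37.3% were apart in these directions, 50.2% in all. Of the 40, 5 met the level filter through 5DPA and 1 through 15DPA, so which members were tested depended in part on the change itself. Among these 5 are 4 of the 13 that fell (Gh_A05G298800, Gh_D13G021500, Gh_D05G184200 and Gh_A12G157700), whose direction this fixed. The median log2 change of the tested members was −0.27, also with the gene of no read at 15DPA set to its bound, and that of all genes tested −0.04. In a separate fit of the genes with a mean of at least 5 FPKM, the median was 0.12 among 23 members and −0.01 among all genes. With library totals as the sole scaling the median of all genes moved to −0.33, and 5 expansins rose and 15 fell. Under that scaling 26.5% of all genes passed, and 27.1% of these were higher at 15DPA, against 55.6% with the TMM factors. FPKM values have no scaling beyond library totals, so their ratio need not match the fitted change beside them.

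How many members passed rested on single libraries. Leaving out 15DPA replicate 1, 2 or 3 gave 8, 20 or 16 members that passed, and leaving out 5DPA replicate 1, 2 or 3 gave 10, 5 or 7. The share of all genes that passed moved alike, to 5.79%, 28.5% or 24.0% without the 15DPA libraries and to 11.9%, 5.84% or 10.6% without the 5DPA libraries. Of the 20 members that passed, 5 passed without each library in turn: Gh_D04G012100, Gh_D07G105800 and Gh_D13G084100 among those that rose, and Gh_A05G081900 and Gh_A05G298800 among those that fell. Gh_A05G298800 met the level filter through 5DPA alone, and the filter over all 6 libraries was kept in each of these fits, which fixed its direction there too.

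**Figure D2:**
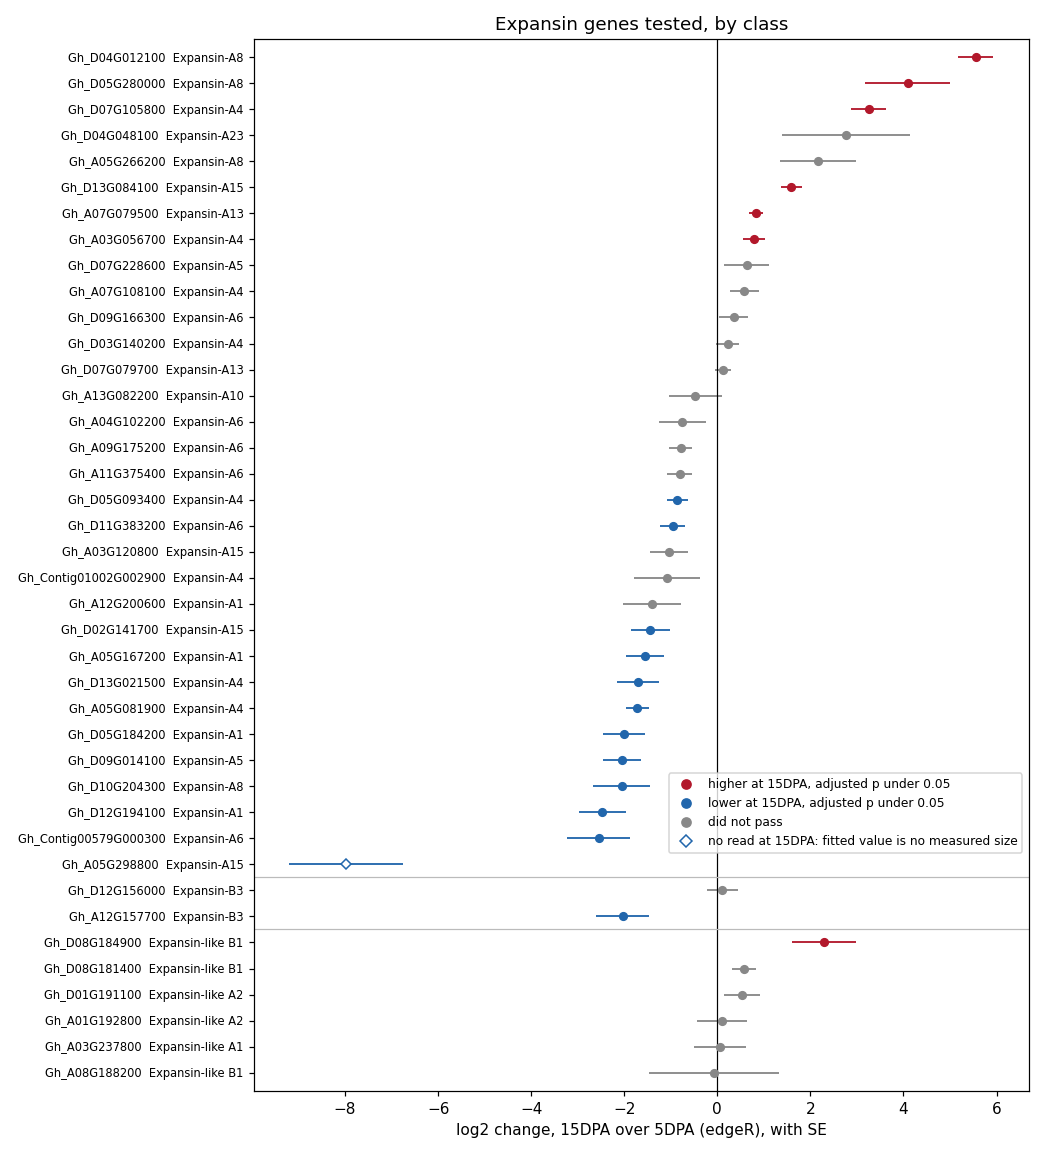
Points give the fitted log2 change (15DPA over 5DPA) of the 40 tested expansin genes with its SE, in the classes expansin-A, expansin-B and expansin-like from top to bottom. Among expansin-A genes 6 rose and 12 fell, led upward by Gh_D04G012100 at 5.55 and Gh_D07G105800 at 3.25; the open symbol marks Gh_A05G298800, with no read at 15DPA, whose fitted value depends on the fit's prior count.

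Among the 32 expansin-A genes tested, 6 rose and 12 fell. The largest fitted rise among the 40 was that of Gh_D04G012100, described as expansin-A8 in Swiss-Prot and as expansin-A10-like in NR, on chromosome D04 from 1492248 to 1493637. It had 56.9, 47.8 and 54.3 FPKM at 15DPA, against 1.58, 0.638 and 1.93 FPKM at 5DPA, which rest on 1047, 917 and 960 reads against 28, 12 and 36 reads. It rose 46.7-fold, or by 5.55 ± 0.38 on the log2 scale (SE, edgeR adjusted p = 0.00146). By mean level it ranked 3 of the 95 at 15DPA and 38 at 5DPA. The stages lay far apart and the 3 libraries of 15DPA close together.

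The expansin-A4 gene Gh_D07G105800, on D07 from 13569649 to 13570805, had the highest mean FPKM of the members at 15DPA. It had 50.0, 76.6 and 114.6 FPKM at 15DPA, against 6.75, 10.7 and 13.5 FPKM at 5DPA. It rose by 3.25 ± 0.38 on the log2 scale (SE, edgeR adjusted p = 0.00394), and the ranges did not overlap. The expansin-A15 gene Gh_D13G084100, on D13 from 13938421 to 13939774, had 20, 27.1 and 14.9 FPKM at 15DPA, against 10.1, 7.35 and 7.52 FPKM at 5DPA. It rose by 1.59 ± 0.22 on the log2 scale (SE, edgeR adjusted p = 0.0062), again without overlap. Beside these rises stand the higher sums of the seed storage and xylem genes at 15DPA given above, whose part was not tested.

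Smaller rises were seen in 2 abundant genes. Gh_A07G079500, an expansin-A13 on A07 from 10609200 to 10610525, had 39.6, 33.5 and 35.6 FPKM at 15DPA, against 25.5, 23.6 and 25.9 FPKM at 5DPA (log2 change 0.83 ± 0.15 SE, edgeR adjusted p = 0.0125). The call was lost when 15DPA replicate 1 or 5DPA replicate 2 was left out (adjusted p up to 0.0573). Gh_A03G056700, an expansin-A4 on A03 from 8745889 to 8748118, had 52.1, 64.1 and 81.6 FPKM at 15DPA, against 41.7, 41.8 and 56.6 FPKM at 5DPA. These ranges overlapped, and the change of 0.79 ± 0.23 (SE, edgeR adjusted p = 0.0448) was lost without any library other than 15DPA replicate 2 or 5DPA replicate 3 (up to 0.15). It was also lost with library totals alone, with upper-quartile scaling, by limma and at a mean FPKM of at least 5.

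A pair of expansin-A8 genes on chromosomes A05 and D05 was high in replicate 3 of 15DPA alone. Gh_D05G280000, on D05 from 27572208 to 27573684, had 6.38, 5.17 and 43.4 FPKM at 15DPA, against 1.26, 1.03 and 1.74 FPKM at 5DPA. It passed (edgeR adjusted p = 0.0211) with a rise of 4.09 ± 0.92 on the log2 scale (SE), which was 2.37 without that library. Leaving out any 1 of the 5DPA libraries ended the call (adjusted p up to 0.0868). Gh_A05G266200, on A05 from 32427265 to 32428638, had 5.22, 8.07 and 49.8 FPKM at 15DPA, against 6.07, 4.84 and 6.61 FPKM at 5DPA. This gene missed the threshold (edgeR adjusted p = 0.0913), and its log2 change of 2.17 ± 0.82 (SE) was 0.43 without 15DPA replicate 3. Gh_A05G266200 lies outside the rule for named genes and was chosen after its values were seen. Without the pair the members summed to 393.0, 495.0 and 496.6 FPKM at 15DPA, so that replicates 2 and 3 nearly coincided. Of 40047 genes tested with a read at 15DPA, 1.16% were at least 3 times as high in replicate 3 as in both other 15DPA libraries.

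**Figure D3:**
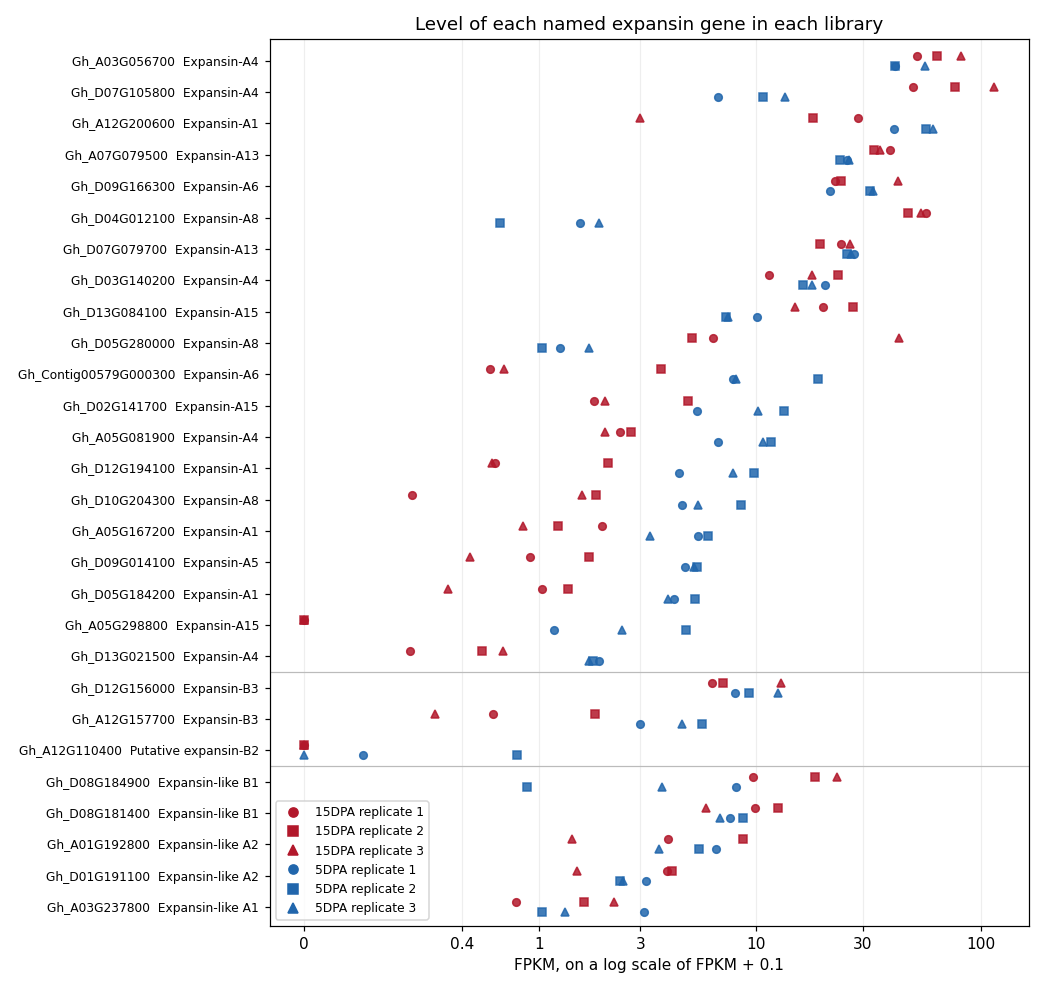
Each row gives the FPKM of 1 expansin gene in the 6 libraries, on a log scale of FPKM + 0.1, for the 28 genes named by rule in the classes expansin-A, expansin-B and expansin-like from top to bottom. The red 15DPA and blue 5DPA points lie apart for Gh_D04G012100, Gh_D07G105800 and most genes that fell, while Gh_D05G280000 has 1 red point at 43.4 FPKM far from its other 2.

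The 12 expansin-A genes that fell had means of 1.83 to 11.9 FPKM at 5DPA. Of 4 tested genes described as expansin-A1, 3 fell, and the ranges were apart in all 4. Of all genes tested 10.4% fell, and 37.3% were apart with 5DPA above. These shares, and the 13.0% that rose, also stand beside the counts by description below. The expansin-A1 description covers 2 proteins. The rice one was hit by the pair on chromosome 5, and the Arabidopsis one, tied there to guard cell walls, by the pair on chromosome 12. Gh_D12G194100, on D12 from 52517840 to 52519704, had 0.601, 2.13 and 0.578 FPKM at 15DPA, against 4.48, 9.83 and 7.89 FPKM at 5DPA. Gh_A05G167200 had 2.0, 1.23 and 0.834 FPKM at 15DPA, against 5.5, 6.11 and 3.32 FPKM at 5DPA. Gh_D05G184200 had 1.04, 1.38 and 0.334 FPKM at 15DPA, against 4.25, 5.33 and 4.03 FPKM at 5DPA. Their log2 changes were −2.47, −1.56 and −2.01 (SE 0.51, 0.41 and 0.45, edgeR adjusted p = 0.0168, 0.0334 and 0.0209). The fourth, Gh_A12G200600, on A12 from 94564404 to 94565678, had the highest mean FPKM of the members at 5DPA. It had 28.5, 17.9 and 3.0 FPKM at 15DPA, against 41.3, 57.0 and 61.6 FPKM at 5DPA. It missed the threshold (log2 change −1.40 ± 0.62 SE, edgeR adjusted p = 0.137). Its 15DPA libraries spread widely, with replicate 3 lowest, although each lay below every 5DPA library.

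Of 4 tested members described as expansin-A15, 1 rose and 2 fell. Against the rise of Gh_D13G084100, the expansin-A15 gene Gh_A05G298800, on A05 from 44202537 to 44203365, had no read in any 15DPA library, against 14, 61 and 31 reads (1.18, 4.82 and 2.47 FPKM) at 5DPA. It was at least 35.4-fold lower at 15DPA, taking 3 reads over the 3 libraries as the most that 0 reads allow (edgeR adjusted p = 0.0127). Gh_D02G141700 had 1.83, 4.92 and 2.05 FPKM at 15DPA, against 5.43, 13.3 and 10.2 FPKM at 5DPA (log2 change −1.44 ± 0.42 SE, edgeR adjusted p = 0.0456). The ranges came close to each other but did not meet.

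The expansin-A4 description, held by 8 tested genes, had 2 that rose and 3 that fell. Gh_A05G081900, on A05 from 8828470 to 8830272, had 2.43, 2.71 and 2.06 FPKM at 15DPA, against 6.76, 11.7 and 10.7 FPKM at 5DPA (log2 change −1.72 ± 0.25 SE, edgeR adjusted p = 0.00684). Gh_D13G021500 had 0.195, 0.516 and 0.661 FPKM at 15DPA, against 1.93, 1.82 and 1.73 FPKM at 5DPA (−1.70 ± 0.45 SE, adjusted p = 0.0346 by edgeR). Neither gene's ranges overlapped. Gh_D05G093400 fell by 0.86 on the log2 scale, under 2-fold (SE 0.23, edgeR adjusted p = 0.0342).

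Of 6 tested genes described as expansin-A6, 2 fell and none rose. A further 2, Gh_A11G375400 and Gh_A09G175200, missed the threshold (edgeR adjusted p = 0.0688 and 0.0522) but passed as lower by DESeq2 (0.0418 and 0.0464) and with library totals alone (0.0404 and 0.0283); they were chosen after their values were seen. Gh_Contig00579G000300, on an unplaced contig, had 0.565, 3.72 and 0.672 FPKM at 15DPA, against 7.9, 19.0 and 8.12 FPKM at 5DPA (log2 change −2.55 ± 0.68 SE, edgeR adjusted p = 0.0343). Replicate 2 was the highest library of its stage on both days. Gh_D11G383200 fell by 0.96, just under 2-fold (SE 0.27, edgeR adjusted p = 0.0404). Gh_D09G014100, an expansin-A5, had 0.903, 1.74 and 0.446 FPKM at 15DPA, against 4.8, 5.4 and 5.25 FPKM at 5DPA (−2.05 ± 0.41 SE, edgeR adjusted p = 0.0147). The 5DPA libraries of this gene nearly coincided. Gh_D10G204300, an expansin-A8, had 0.2, 1.87 and 1.61 FPKM at 15DPA, against 4.63, 8.6 and 5.47 FPKM at 5DPA (−2.06 ± 0.61 SE, edgeR adjusted p = 0.0464). Apart from Gh_A05G081900 and Gh_A05G298800, each member that fell was lost without 3 to 5 of the 6 libraries in turn, with adjusted p up to 0.152. Beside these falls stand the lower sums of the dividing cell, phloem and green tissue genes at 15DPA given above, whose part was not tested.

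Several abundant expansin-A genes did not pass. The expansin-A6 gene Gh_D09G166300 had 22.5, 23.9 and 43.1 FPKM at 15DPA, against 21.5, 32.1 and 33.3 FPKM at 5DPA (edgeR adjusted p = 0.43). The expansin-A13 gene Gh_D07G079700 had 23.9, 19.4 and 26.3 FPKM at 15DPA, against 27.3, 25.5 and 26.4 FPKM at 5DPA (edgeR adjusted p = 0.654). The expansin-A4 gene Gh_D03G140200 had 11.4, 23.2 and 17.7 FPKM at 15DPA, against 20.3, 16.2 and 17.7 FPKM at 5DPA (edgeR adjusted p = 0.515). In all 3 the stages overlapped. The order of the most abundant members by mean FPKM therefore differed between stages: Gh_D07G105800, Gh_A03G056700 and Gh_D04G012100 led at 15DPA, and Gh_A12G200600, Gh_A03G056700 and Gh_D09G166300 at 5DPA. At 15DPA the libraries of the first 3 overlapped for Gh_D07G105800 and both others, so their order is not set beyond the spread. At 5DPA the libraries of Gh_A12G200600 and Gh_A03G056700 overlapped too. The leading place also depended on model length, which is 1403 bases for Gh_A03G056700, 864 for Gh_D07G105800 and 747 for Gh_A12G200600. In reads Gh_A03G056700 stood above both leaders. It had 4501 reads at 15DPA, against 3370 for Gh_D07G105800, and 3197 at 5DPA, against 1948 for Gh_A12G200600.

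Of the 8 expansin-B genes 2 were tested, both described as expansin-B3 and both on chromosome 12 of their subgenome. Gh_A12G157700, on A12 from 84287062 to 84289676, fell. It had 0.585, 1.86 and 0.281 FPKM at 15DPA, against 3.0, 5.72 and 4.66 FPKM at 5DPA (log2 change −2.03 ± 0.57 SE, edgeR adjusted p = 0.0408). It met the level filter through 5DPA alone, and the call was lost without 15DPA replicate 1 or any 1 of the 5DPA libraries (up to 0.135). Gh_D12G156000, on D12 from 46004463 to 46006969, had 6.32, 7.07 and 12.9 FPKM at 15DPA, against 8.08, 9.28 and 12.6 FPKM at 5DPA (edgeR adjusted p = 0.835). The ranges of this D copy overlapped almost wholly. The class came to 9.86 ± 3.03 FPKM in sum at 15DPA, against 15.0 ± 3.22 FPKM at 5DPA. The next by level, Gh_A12G110400, described as a putative expansin-B2, had no read at 15DPA and 1, 10 and 0 reads at 5DPA, and was not tested.

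Of the 17 expansin-like genes 6 were tested, of which 1 rose. Gh_D08G184900, an expansin-like B1 on D08 from 56686514 to 56687702, had 9.72, 18.4 and 23.1 FPKM at 15DPA, against 8.1, 0.872 and 3.76 FPKM at 5DPA (log2 change 2.29 ± 0.68 SE, edgeR adjusted p = 0.046). The ranges did not overlap, but replicate 1 of 15DPA lay near replicate 1 of 5DPA. It was lost without any library other than 5DPA replicate 1 (adjusted p up to 0.129), with library totals alone and with upper-quartile scaling. The second expansin-like B1, Gh_D08G181400, had 9.87, 12.6 and 5.96 FPKM at 15DPA, against 7.65, 8.72 and 6.89 FPKM at 5DPA (edgeR adjusted p = 0.132), and passed without 15DPA replicate 3. The expansin-like A2 gene Gh_A01G192800 had 4.03, 8.7 and 1.44 FPKM at 15DPA, against 6.62, 5.54 and 3.66 FPKM at 5DPA (edgeR adjusted p = 0.907). An expansin-like A2 of Arabidopsis is known from work on its response to a fungal pathogen. The other expansin-like A2, Gh_D01G191100, had 3.95, 4.19 and 1.53 FPKM at 15DPA, against 3.19, 2.42 and 2.5 FPKM at 5DPA (edgeR adjusted p = 0.335). Gh_A03G237800, an expansin-like A1, had 0.767, 1.64 and 2.27 FPKM at 15DPA, against 3.13, 1.04 and 1.34 FPKM at 5DPA (edgeR adjusted p = 0.952). The stages of these 4 genes overlapped.

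Gh_D08G184900 lies in a cluster. With Gh_D08G185000 and Gh_D08G185100 it spans D08 from 56686514 to 56705085, and 2 further expansin-like B1 genes lie within 100 kb of each other on A08. Its own reads at 5DPA were 96, 11 and 47, highest in replicate 1. Gh_D08G185000 had no read in any library, and Gh_D08G185100 had 0, 7 and 1 reads at 15DPA, against 42, 0 and 0 reads at 5DPA. On A08, Gh_A08G188200 had 6, 33 and 9 reads at 15DPA, against 56, 0 and 1 reads at 5DPA. Both were thus high in replicate 1 of 5DPA, as Gh_D08G184900 was, and near 0 in the other 2 libraries of that stage. Without that library the log2 change of Gh_A08G188200 was 4.9 (edgeR adjusted p = 0.0528), and with it the gene did not pass (adjusted p = 0.975 by edgeR). Outside the cluster, 2 expansin-like A2 genes were also highest at 5DPA in replicate 1. Gh_A04G153000 had 44, 2 and 3 reads and Gh_D04G192200 had 9, 1 and 1 reads at 5DPA. Not every expansin-like gene shared this: Gh_D08G181400 had 122, 148 and 116 reads at 5DPA. The neighbours and these 2 expansin-like A2 genes were chosen after their values were seen.

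The other 55 members were not tested. Of them 19 had no read in any library, which allows up to 3 reads over the libraries of a stage, and 36 had 1 to 90 reads over the 6 libraries. The 19 take in both genes described as expansin-A11, both described as expansin-A12 and both described as expansin-A18, 4 of 5 described as expansin-A17, the single expansin-A30 and 3 expansin-like B1 genes. In Arabidopsis expansin-A18 is known from root hairs and expansin-A17 from emerging lateral roots. The expansin-A7 genes, named for another root hair expansin, had traces of reads, with means of 0.0523 and 0.0385 FPKM over the 6 libraries. The untested member with the highest mean was Gh_A05G376900, an expansin-A23 with a mean of 0.912 FPKM. Of the 36 genes 1 passed when no level filter was set: Gh_D13G007200, an expansin-A8 with 16, 50 and 14 reads at 15DPA, against 2, 8 and 0 reads at 5DPA (edgeR adjusted p = 0.04 over 57565 genes), named because it was the 1 that passed.

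Gene models limit how levels compare between members. Model lengths ran from 465 to 1479 bases. They were a multiple of 3, as in a model of coding sequence alone, in 44 of the 55 untested and 22 of the 40 tested members, and in 75% of all genes. The tested genes had a median length of 1140 bases and the untested ones 789 bases.

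Members were placed on 24 chromosomes, 47 on the A and 46 on the D subgenome, with 2 on contigs. Genes on A chromosomes came to 190.7 ± 24.5 FPKM at 15DPA, against 226.1 ± 28.6 FPKM at 5DPA, a direction that turned with the TMM factors (211.5 ± 29.6 against 204.2 ± 28.0). Genes on D chromosomes came to 307.6 ± 68.2 FPKM at 15DPA, against 182.6 ± 11.8 FPKM at 5DPA. With the TMM factors they came to 341.7 ± 84.0, against 164.9 ± 12.2. Of the sums without these factors, the D genes Gh_D04G012100 and Gh_D07G105800 alone supplied 133.4 ± 32.0 FPKM at 15DPA, against 11.7 ± 3.59 FPKM at 5DPA. Of 17 tested A genes 2 rose and 4 fell, and of 21 tested D genes 5 rose and 8 fell. The 5 rises of at least 2-fold were all on the D subgenome, among them Gh_D04G012100 and Gh_D07G105800. The calls of all genes tested were not split by subgenome. Whether the subgenomes differ was not tested.

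Members with the same Swiss-Prot hit on homoeologous chromosomes (the A and D versions of one chromosome, with the known arm exchanges between chromosomes 2 and 3 and between 4 and 5) were taken as copies. Of 33 sets with exactly 1 A and 1 D gene, 11 had both copies tested. Both copies fell in 2 of these (Gh_A05G081900 with Gh_D05G093400, and Gh_A05G167200 with Gh_D05G184200). In 7 of the 11, 1 copy passed and the other did not, in 2 neither passed, and in 0 did the copies pass in opposite directions. These calls were not counted over all such pairs of the table, so they do not set the expansins apart from other genes.

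The ratio of the D to the A copy in FPKM sets both copies side by side within a library. Its level depends on the model lengths of the copies, which are the same in every library. For the expansin-A4 pair on chromosome 7, Gh_D07G105800 over Gh_A07G108100, the ratio was 8.24, 6.31 and 11.8 at 15DPA and 1.44, 1.22 and 1.47 at 5DPA. The models have 864 bases in the D copy and 1479 in the A copy. In reads the D copy was the lower one at 5DPA, with 91, 154 and 193, against 108, 216 and 225. Gh_A07G108100 itself had 6.07, 12.1 and 9.7 FPKM at 15DPA, against 4.68, 8.79 and 9.23 FPKM at 5DPA (edgeR adjusted p = 0.211). For the expansin-B3 pair the ratio was 10.8, 3.8 and 45.7 at 15DPA and 2.69, 1.62 and 2.71 at 5DPA. For the expansin-A13 pair, Gh_D07G079700 over Gh_A07G079500, it was 0.604, 0.579 and 0.737 at 15DPA and 1.07, 1.08 and 1.02 at 5DPA. The first 2 ratios were higher and the third lower at 15DPA, with no overlap between stages. Of the 11 pairs, 6 had ratios that did not overlap, 4 higher and 2 lower at 15DPA. An exact two-sided permutation test of 3 against 3 libraries cannot go below p = 0.1, which these 6 reached (Benjamini-Hochberg adjusted p = 0.183 over 11 pairs), so no pair passed. Over all 10052 such pairs of the table with both copies tested, 33.8% had ratios apart.

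**Figure D4:**
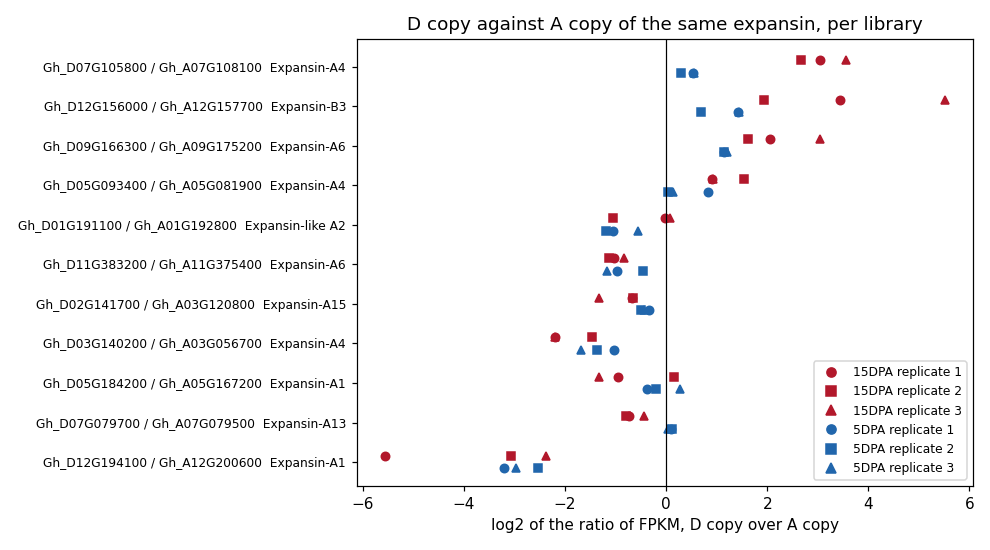
Each row gives log2 of the D copy's FPKM over the A copy's FPKM in the 6 libraries, for the 11 pairs with both copies tested. Copies can differ in model length, so the level of a ratio depends on the models. The red 15DPA points of the expansin-A4 pair on chromosome 7 lie right of its blue 5DPA points (6.31 to 11.8 against 1.22 to 1.47 as ratios), and those of the expansin-A13 pair lie left of theirs.

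The gene with the largest rise, Gh_D04G012100, has a same-hit gene on A05, Gh_A05G410400, from 107813835 to 107815275, which NR also describes as expansin-A10-like. That gene had 16, 24 and 13 reads at 15DPA, against 8, 5 and 6 reads at 5DPA, below the level tested. Its level was thus 0.69 to 1.17 FPKM at 15DPA, where Gh_D04G012100 held 47.8 to 56.9 FPKM.

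Reads that fit near-identical copies may have been placed on either, so copies were also summed before the fit. The 95 genes gave 48 sets, of which 28 were tested, 3 rose and 7 fell. Of all rows tested in that fit 23.3% passed. Sets rest on hit and chromosome alone, so a set can join genes that are not near-identical. The expansin-A4 set on chromosome 7 rose by 2.34 ± 0.36 (SE, edgeR adjusted p = 0.00761), and the set of 4 expansin-A8 genes on A05, D04 and D05 rose by 3.71 ± 0.43 (adjusted p = 0.00374 by edgeR). The expansin-A8 set joins Gh_D04G012100 with the pair that was high in 15DPA replicate 3. The other set that rose holds Gh_D13G084100 alone, so it adds nothing on copies of that gene. The sets of Gh_A03G056700 (adjusted p = 0.0527), Gh_A07G079500 (0.0578), Gh_D12G194100 (0.0865), Gh_D02G141700 (0.0659), Gh_D09G014100 (0.0987), Gh_A12G157700 (0.439) and Gh_D08G184900 (0.178) did not pass by edgeR, although each of these genes passed alone. The set of Gh_D08G184900 holds 5 genes, among them its neighbours in the cluster with reads in 5DPA replicate 1. A shift of reads between copies was not tested.

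Other genes of wall loosening passed in both directions as well. Of 36 tested xyloglucan endotransglucosylase/hydrolase genes, which cut and rejoin xyloglucan, 7 rose and 7 fell. The most abundant, Gh_D11G054000, had 1219, 781.9 and 1299 FPKM at 15DPA, against 433.8, 302.2 and 478.2 FPKM at 5DPA (log2 change 1.75 ± 0.32 SE, edgeR adjusted p = 0.0122). Of 20 tested endoglucanase genes, which cleave glucan chains, 8 rose and 3 fell, and the most abundant, Gh_A02G120000, had 154.3 ± 30.2 FPKM at 15DPA, against 127.0 ± 30.3 FPKM at 5DPA (edgeR adjusted p = 0.139). Of 37 pectinesterases, which remove methyl groups from pectin, 7 rose and 7 fell. Their most abundant gene, Gh_D07G019300, had 67.1 ± 6.34 FPKM at 15DPA, against 65.5 ± 13.3 FPKM at 5DPA (edgeR adjusted p = 0.276). Of 10 genes described as pectinesterase inhibitors alone, 0 passed by edgeR, 3 had an unadjusted p under 0.05, 1 passed by DESeq2, and 3 and 1 passed by limma with pseudocounts of 1 and 0.1. The most abundant, Gh_D05G037100, had 671.3 ± 49.1 FPKM at 15DPA, against 893.3 ± 132.5 FPKM at 5DPA (edgeR adjusted p = 0.702). Of 14 genes matched as plasma membrane ATPases, the proton pumps that acidify the wall, 1 rose and 1 fell (6 passed by DESeq2), and the most abundant, Gh_A03G081200, had 78.5 ± 12 FPKM at 15DPA, against 95.5 ± 6.91 FPKM at 5DPA (edgeR adjusted p = 0.987). These shares stand beside 23.4% of all genes tested.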

How the data were processed

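Reads of 6 fiber libraries were counted per gene by the authors, with HISAT and StringTie per the submitters' processing notes. Tool versions, build, annotation, counting settings and strand use were not given in the sources used here. Per the file headers, the deposited table holds a read count and an FPKM value per gene and library. The deposited FPKM equals count per kilobase of model and per M counts of the library, to within a relative 6.9e-06. Coordinates are those of the table, without a named build, and exon positions were not used here. Of the table's lines 2 were empty. Groups come from the sample titles.

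Genes with a mean of at least 1 FPKM over the 6 libraries (40054 genes, 99.34% of counts) were tested with edgeR 4.0.16 (glmQLFit, glmQLFTest, TMM scaling; R 4.3.3), two-sided, with Benjamini-Hochberg adjustment over all of them. The SE is the log2 change divided by the square root of the F value. The script was tested on simulated counts. Alternatives used DESeq2 1.42.0, limma 3.58.1, other scalings and filters, a replicate block, and each library left out in turn. Library values are given for each member that passed by at least 2-fold and for the 8 expansin-A, 3 expansin-B and 5 expansin-like genes of highest mean FPKM. Partners in a copy set were named after their values were seen. The members and lists were chosen with earlier results of these data known. Replicates of a stage differed by more than sampling noise (chi-square per gene of 12.49 to 36.68), so none was counted as a duplicate. One read on a gene of 1 kb was worth 0.059 to 0.064 FPKM, and limits from counts cover counting error alone. Near-identical copies, overlapping genes and antisense genes may share reads, so values of single copies are uncertain.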

Additional observations from a re-analysis of the deposited data

How the results depend on the processing

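The count of 20 expansins that passed lay between 19 and 22 under other scalings, DESeq2, limma, no filter, filterByExpr and the replicate block, where 16% (no filter) to 29.6% (limma, pseudocount 1) of all genes passed. At a mean of at least 5 FPKM 23 members were tested, 12 passed and 6 fell, all 6 expansin-A, with 0 expansin-B genes lower. The expansin-like count of 1 higher was 0 with library totals alone, with upper-quartile scaling and under the replicate block. Divided by DESeq2 size factors, the members summed to 560.2 FPKM at 15DPA, against 378.6 FPKM at 5DPA. With 1 library left out, members passing ranged from 5 to 20, higher from 3 to 7, lower from 2 to 13, expansin-A higher from 3 to 7, expansin-A lower from 2 to 12, expansin-B lower and expansin-like higher from 0 to 1, copy sets from 5 to 12, all genes from 2319 to 11434, and the members' median from −0.88 to −0.18. Copy sets numbered 15 by DESeq2 and 13 under the block. The cause was not tested.

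Some genes that did not pass changed sign. Gh_A01G192800 (0.10) was −0.16 with library totals alone, −0.32 and −0.45 by limma (pseudocounts 1 and 0.1) and −0.13 under the block. In the same order without the block, Gh_D03G140200 (0.22) was −0.06, −0.10 and −0.11, Gh_D07G079700 (0.12) was −0.19, −0.19 and −0.20, Gh_D12G156000 (0.11) was −0.20, −0.21 and −0.24, and Gh_A03G237800 (0.05) was −0.24, −0.12 and −0.19. The last was −0.04 with upper-quartile scaling, and Gh_D12G156000 was −0.0043 at a mean of at least 5 FPKM. With 1 library left out, Gh_A01G192800 ranged from −0.57 to 0.51, Gh_A03G237800 from −0.37 to 0.68, Gh_D07G079700 from −0.01 to 0.29, Gh_D09G166300 from −0.05 to 0.54 and Gh_D12G156000 from −0.32 to 0.35.

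Same-numbered libraries, replicates 1 to 3, correlated at −0.262, 0.29 and 0.059 in their deviations from the stage means. Differently numbered ones correlated at −0.318 to 0.224. These values showed no clear pairing by replicate number, but deviations from a mean of 3 libraries are tied to each other and cannot decide it. With the replicate block 20 members passed, 18 of them shared with the fit without it, which had Gh_D13G021500 and Gh_D08G184900 in addition (edgeR adjusted p = 0.0549 and 0.0612 with the block).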
